A study of Homo sapiens with 8 samples.

Results

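A set of genes used as markers of tumour-initiating or stem cells was followed in sorted tumour cells: PROM1, CD44, ALCAM, BMI1, DCLK1, OLFM4, MSI1, LRIG1 and TNFRSF19. They were taken by name from a fixed list of 9, each through the array probe set whose annotation names that gene alone, and the brightest such probe set was to be used where there were several. This gave 1 probe set each for 8 of the 9 genes, out of 18417 genes named in the same way. The only listed probe set of BMI1 also names the read-through gene COMMD3-BMI1, so BMI1 has no value of its own here. All 8 measured markers passed the filter on dim genes and were among the 16910 genes tested.

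RNA came from 4 established human tumour cell lines, COLO741, SW620, HT29 and HCT116, which the labels describe as colon carcinoma, its lymph node metastasis (SW620) or colon adenocarcinoma (HT29). Cells of each line, grown in RPMI medium with serum and penicillin/streptomycin, were separated by flow sorting with an antibody against the transporter ABCB5 into ABCB5-positive and ABCB5-negative cells. Each of the 8 populations gave 1 array (Affymetrix Human Gene 1.0 ST), so the groups hold 4 arrays each and every line holds 2. The series design text names SW480 in the place of SW620, and the sample labels were followed.

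Levels are the deposited log2 values, so that 1 unit is a doubling, and they can be set against each other for 1 gene across arrays but not between genes. A level above 7.50, the 95th percentile of 360 probe sets of olfactory receptor genes, was taken as above background. The RNA of ABCB5 itself had a log2 level of 8.14 in the COLO741 array labelled ABCB5-positive, against 9.42 in the one labelled ABCB5-negative, and it was at background in the other 3 lines. The order in COLO741 runs against the labels, which come from an antibody sort and not from RNA. Whether RNA and antibody signal go together in this line was not tested. Each direction given for COLO741 rests on those labels. The colon label also met different data in different lines. In COLO741 10 of 11 genes of colon epithelium were lower than the mean of the other lines and 6 of 7 melanocyte genes were higher, where 26% and 23.7% of all genes tested were. Among the melanocyte genes was TYRP1, an enzyme of melanin synthesis (limma on the fitted difference, adjusted p = 3.17e-07). With the other lines set at the background limit, its COLO741 mean was at least 90.2-fold higher. Summed over the list and put on a log2 scale, the melanocyte genes reached 15.83 and 16.07 in ABCB5-positive and ABCB5-negative COLO741 cells and 10.08 to 10.29 in the other lines, and the colon genes 12.54 and 12.42 against 15.64 to 16.73. EPCAM, the adhesion protein of epithelia, was at 5.36 and 6.43 in the ABCB5-positive and ABCB5-negative arrays of COLO741 and at 13.32 or more in the other lines. Over 9 genes of leukocytes the median difference of the ABCB5-positive minus the ABCB5-negative array of SW620 was 1.06 log2 units, with CD3E lower (6.33 against 6.54). In that ABCB5-positive array 6 of the 9 were above background, against 3 in ABCB5-negative cells, with a summed level of 12.29 against 11.03.

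The markers belong to different kinds of molecules. PROM1 (CD133), CD44 and ALCAM (CD166) are surface proteins by which cells that start tumours have been sorted from colon cancers. DCLK1 is a kinase of tuft cells, a rare chemosensory cell of the gut, and MSI1 is an RNA-binding protein of neural and intestinal progenitors. LRIG1, a brake on ERBB receptors, OLFM4, a secreted glycoprotein, and TNFRSF19 (TROY), a receptor of the TNF receptor family, mark stem cells at the base of intestinal crypts, and CD44 and TNFRSF19 are also known as targets of Wnt signalling.

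The markers differed more between cell lines than between the sorted populations of a line: the range over the line means was 2.75 to 17.0 times the largest difference within a line for 7 markers, and 2.004 times for OLFM4. For 7 of the 8 markers the 4 lines differed (limma F-test, adjusted p from 4.69e-06 to 1.05e-03), where 67.2% of all genes tested did, and for OLFM4 they were not shown to differ (adjusted p = 0.189). No line was highest for all: HT29 led for PROM1, COLO741 for CD44, DCLK1 and TNFRSF19, HCT116 for ALCAM and MSI1, and SW620 for LRIG1. Between the highest and the lowest line the median marker spanned 2.57 log2 units, against 0.64 over all genes tested. The genes tested include some with means under the background limit, and the markers were chosen with earlier results of these data known. Both arrays of a line are sorted fractions of it, and no label says that they come from separate cultures, so these p-values measure the spread between the sorted arrays. In such bulk RNA a larger share of expressing cells and more RNA per cell cannot be told apart.

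**Figure D1:**
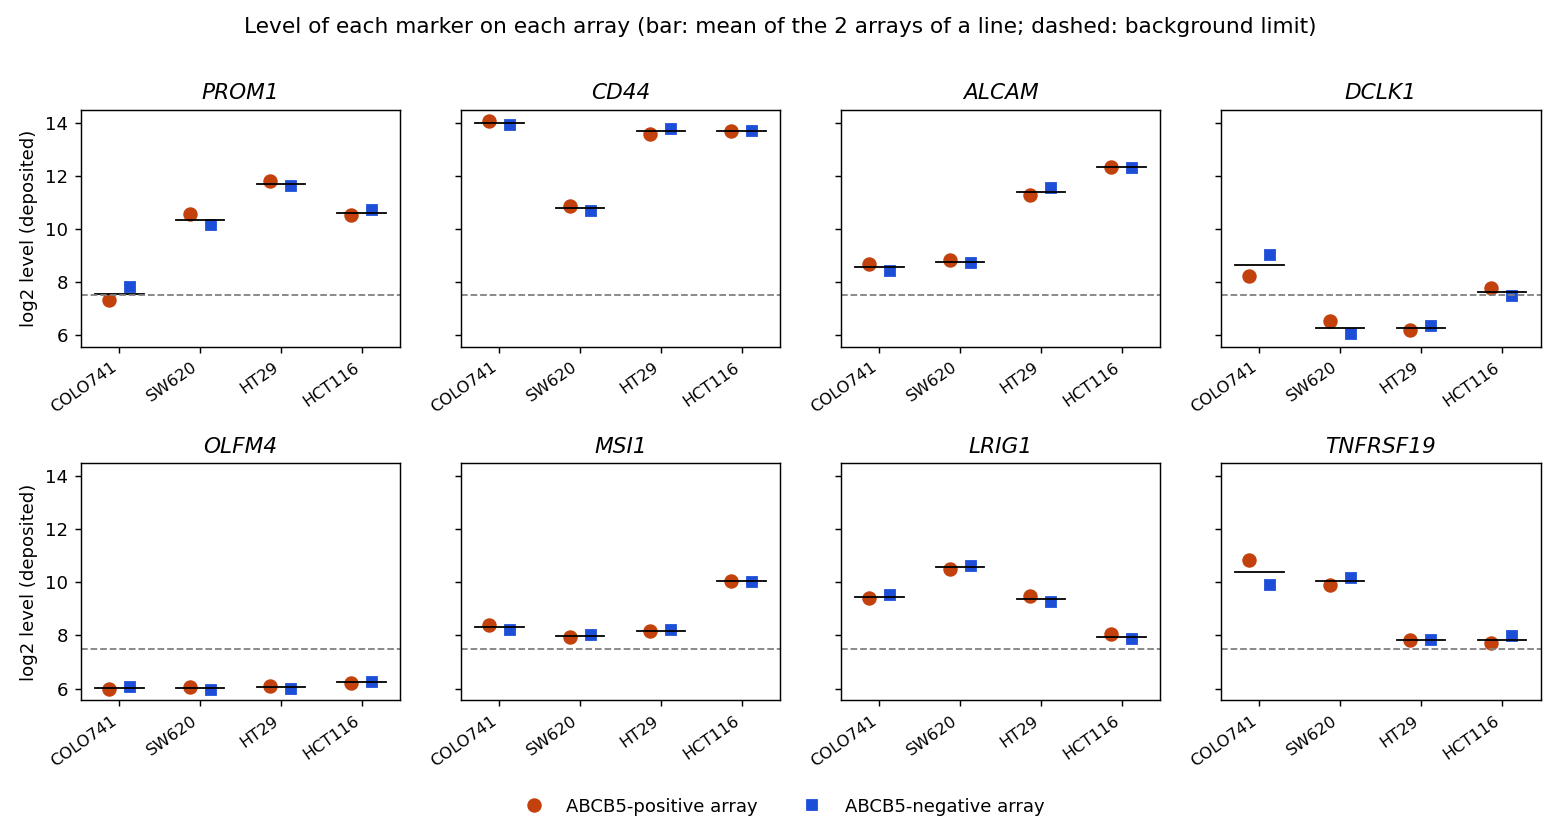
Log2 level of the 8 markers (vertical axis) in each cell line (horizontal axis), with circles for ABCB5-positive arrays, squares for ABCB5-negative arrays, a bar at the mean of the 2 arrays of a line and a dashed line at the background limit of 7.50. The 2 arrays of a line lie close together for most markers, CD44 is lowest in SW620, MSI1 highest in HCT116, and all 8 OLFM4 values lie under the limit.

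PROM1, a protein of membrane protrusions, was low in COLO741 and high in the 3 other lines. Its log2 level in the ABCB5-positive and then the ABCB5-negative array was 7.31 and 7.79 in COLO741, 10.55 and 10.13 in SW620, 11.80 and 11.60 in HT29, and 10.51 and 10.70 in HCT116. Both COLO741 values lay near the background limit, 1 on each side of it, and overlapped with no other line. By line mean the order was HT29 (11.70), HCT116 (10.60), SW620 (10.34) and COLO741 (7.55). HT29 stood 2.14-fold above HCT116 (limma, adjusted p = 0.00669) and SW620 6.92-fold above COLO741 (adjusted p = 8.94e-05), while HCT116 and SW620 overlapped and were not shown to differ (adjusted p = 0.362).

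CD44, the receptor of hyaluronan, ran the other way in COLO741 and was low only in SW620 among the 4 lines. Measured in ABCB5-positive and then ABCB5-negative cells, its log2 level was 14.08 and 13.93 in COLO741, 10.87 and 10.69 in SW620, 13.59 and 13.78 in HT29, and 13.68 and 13.70 in HCT116. All 6 arrays of COLO741, HT29 and HCT116 lay between 13.59 and 14.08, and both SW620 arrays far below them. HT29, the third in the order, stood 7.48-fold above SW620 (limma, adjusted p = 8.80e-06). Both COLO741 arrays lay above both HCT116 arrays, by 0.32 log2 units between the means (95% interval 0.04 to 0.59), but the step missed the adjusted threshold (adjusted p = 0.0643). HCT116 and HT29 overlapped (adjusted p = 0.975). CD44 was lowest in the line in which LGR5, the receptor that defines crypt stem cells and was named here after its values were seen, was highest, at 12.71 on both SW620 arrays.

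ALCAM, an adhesion protein of the immunoglobulin family, split the lines into a bright and a dim pair. The ABCB5-positive and then the ABCB5-negative array gave log2 levels of 8.69 and 8.41 in COLO741, 8.81 and 8.70 in SW620, 11.27 and 11.54 in HT29, and 12.35 and 12.28 in HCT116. All 4 arrays of HT29 and HCT116 lay above all 4 of COLO741 and SW620. HCT116 stood 1.88-fold above HT29 (limma, adjusted p = 0.00254) and HT29 6.28-fold above SW620 (adjusted p = 2.54e-05), while the step between SW620 and COLO741 missed the threshold (adjusted p = 0.269).

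CD44 and ALCAM are the 2 markers with the widest single step between neighbouring lines among those for which RefSeq (GRCh38.p14) lists 1 transcription start, and the 250 bases before that start are shown for that reason, 5′ to 3′ on the gene's strand. Capitals mark GGGCGG, the GC box, on either strand. The CD44 window is chr11:35138921-35139170 and the ALCAM window chr3:105366659-105366908, both on the plus strand.
CD44: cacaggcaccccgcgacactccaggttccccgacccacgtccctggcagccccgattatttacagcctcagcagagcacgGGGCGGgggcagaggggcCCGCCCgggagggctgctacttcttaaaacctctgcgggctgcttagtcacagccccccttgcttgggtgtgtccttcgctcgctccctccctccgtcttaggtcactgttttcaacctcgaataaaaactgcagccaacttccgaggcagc
ALCAM: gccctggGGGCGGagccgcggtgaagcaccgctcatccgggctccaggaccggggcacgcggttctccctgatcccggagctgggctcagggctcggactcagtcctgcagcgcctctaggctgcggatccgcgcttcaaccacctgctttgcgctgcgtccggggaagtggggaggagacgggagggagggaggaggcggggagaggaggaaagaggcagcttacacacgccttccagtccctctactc
The GC box matched at 2 places in the CD44 window, 1 on each strand, and at 1 place in the ALCAM window, and 42.6% of the 35116 windows of this length in the table hold at least 1 match. TATAAA, the TATA box, and CTTTGA, a core of sites of TCF and LEF factors, matched in neither window on either strand, and 10.7% and 11.2% of all windows hold them. The motifs searched do not overlap with each other in these windows. The CD44 window holds 15 CG dinucleotides and the ALCAM window 20, against a median of 11 over all windows.

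DCLK1 was above background on 3 of the 8 arrays, the 2 of COLO741 and 1 of HCT116. Its log2 level in the ABCB5-positive and then the ABCB5-negative array was 8.24 and 9.02 in COLO741, 6.54 and 6.03 in SW620, 6.19 and 6.35 in HT29, and 7.77 and 7.46 in HCT116. The fitted differences of COLO741 above SW620 and above HT29 passed the threshold (limma, adjusted p = 8.04e-04 and 7.25e-04). With the dim lines set at the background limit, the mean of COLO741 was at least 2.19-fold above both. COLO741 was also above HCT116, where 1 of 2 arrays was above background, by 1.01 log2 units (adjusted p = 0.0275). SW620 and HT29 were both at background.

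MSI1 was bright in HCT116 and near the background limit elsewhere. Measured in ABCB5-positive and then ABCB5-negative cells, its log2 level was 8.39 and 8.21 in COLO741, 7.96 and 8.01 in SW620, 8.17 and 8.19 in HT29, and 10.06 and 10.02 in HCT116. HCT116 stood 3.34-fold above COLO741, the next line (limma, adjusted p = 2.38e-05), and its arrays overlap with those of no other line. Among the dimmer lines the steps of COLO741 above HT29 (adjusted p = 0.342) and of HT29 above SW620 (adjusted p = 0.143) missed the threshold, but COLO741 was higher than SW620 by 0.32 log2 units (95% interval 0.10 to 0.54, adjusted p = 0.0297).

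LRIG1 was highest in SW620 and lowest in HCT116. The ABCB5-positive and then the ABCB5-negative array gave log2 levels of 9.41 and 9.52 in COLO741, 10.50 and 10.63 in SW620, 9.50 and 9.26 in HT29, and 8.04 and 7.87 in HCT116. SW620 stood 2.14-fold above COLO741 (limma, adjusted p = 4.87e-04) and HT29 2.68-fold above HCT116 (adjusted p = 2.15e-04). COLO741 and HT29 overlapped (adjusted p = 0.600).

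TNFRSF19 was bright in COLO741 and SW620 and just above the background limit in the other 2 lines. Its log2 level in the ABCB5-positive and then the ABCB5-negative array was 10.84 and 9.91 in COLO741, 9.91 and 10.16 in SW620, 7.82 and 7.85 in HT29, and 7.73 and 7.96 in HCT116. All 4 arrays of COLO741 and SW620 lay above the 4 of HT29 and HCT116, the reverse of the split of ALCAM. SW620 stood 4.56-fold above HCT116 (limma, adjusted p = 0.00134). COLO741 and SW620 (adjusted p = 0.367) and HCT116 and HT29 (adjusted p = 0.978) overlapped and were not shown to differ.

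OLFM4 was at background throughout. Its 8 log2 levels ran between 5.96 and 6.25, with 5.96 to 6.22 in the ABCB5-positive arrays and 5.96 to 6.25 in the ABCB5-negative arrays. No OLFM4 transcript was shown in these lines, and at background its differences carry no order.

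Set against the mean of the other lines, COLO741 was lower for PROM1, ALCAM and MSI1 and higher for CD44, DCLK1 and TNFRSF19. That is 3 of 8 markers higher and 3 lower, where 23.7% and 26% of all genes tested were (49.7% in all), so the direction of the markers was mixed. The difference was -3.33 ± 0.17 for PROM1 (log2, SE, 2 COLO741 arrays and 6 others; limma, adjusted p = 1.51e-05), -2.28 ± 0.11 for ALCAM (adjusted p = 1.26e-05) and 1.80 ± 0.23 for TNFRSF19 (adjusted p = 8.04e-04). The errors and p-values of this contrast measure the spread between the sorted arrays of a line, not that among the other lines. The fitted value of DCLK1, 1.91 ± 0.24 (adjusted p = 7.11e-04), is not a measured size, since 5 of the 6 other arrays lay under the background limit. With 1 of the other lines left out, ALCAM ran from -3.31 to -1.53 and TNFRSF19 from 1.44 to 2.54. For neither was COLO741 shown to differ from SW620 alone (limma, adjusted p = 0.269 and 0.367). Single lines also decided the values of CD44, MSI1 and LRIG1. CD44 differed by 1.29 ± 0.09 (adjusted p = 6.83e-05) but by 0.32 without SW620 (adjusted p = 0.0412). MSI1 differed by -0.43 ± 0.08 (adjusted p = 0.00350) but by 0.22 without HCT116 (adjusted p = 0.111), by -0.81 without SW620 and by -0.71 without HT29. LRIG1, at 0.17 ± 0.10 (adjusted p = 0.213), was called higher without SW620, at 0.80 (adjusted p = 0.00210), and called lower without HCT116, at -0.50 (adjusted p = 0.0155). The melanocyte and epithelial genes move with the same contrast, and their part in it was not tested.

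**Figure D2:**
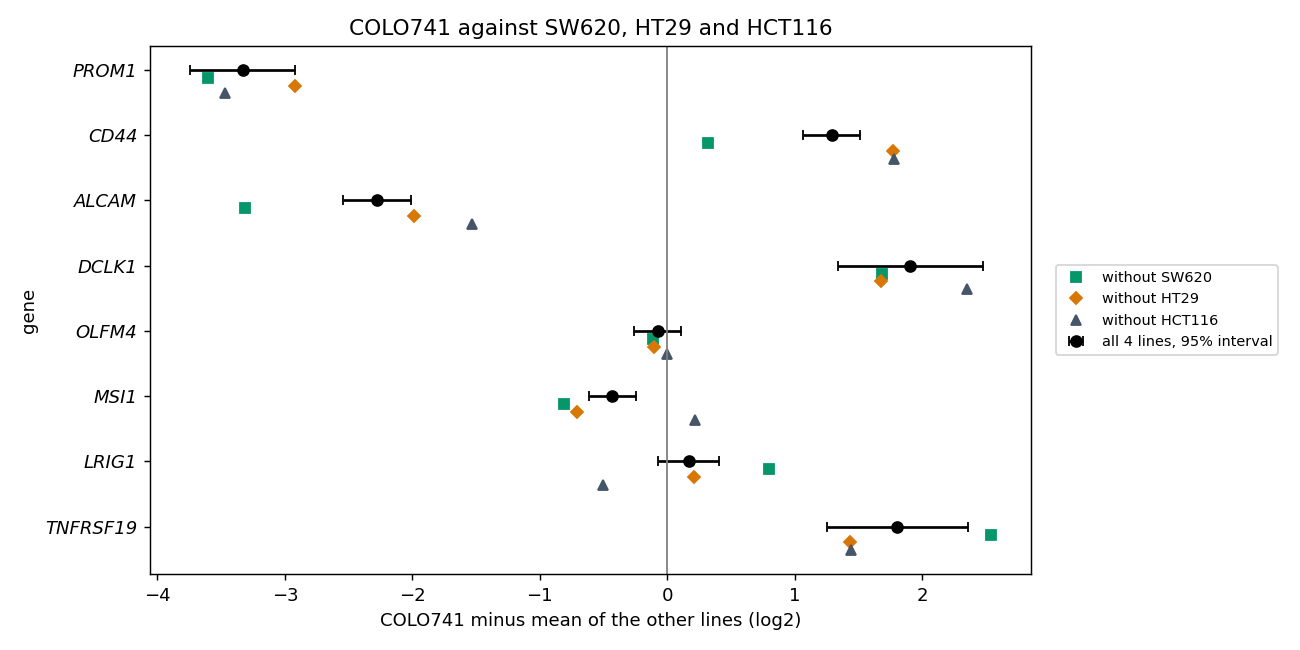
Log2 difference of COLO741 minus the mean of SW620, HT29 and HCT116 for each marker (vertical axis), as black points with 95% intervals from limma, and the same difference with 1 of the other lines left out in coloured symbols. PROM1 and ALCAM stay below 0 and DCLK1 and TNFRSF19 above 0 in each setting shown, while MSI1 and LRIG1 cross 0 without HCT116. The intervals measure the spread between the sorted arrays of a line, not that among the other lines.

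Pair by pair, the lines differed for about as large or a larger share of the markers than of all genes tested. COLO741 differed from SW620 for 5 of 8 markers (47% of all genes tested), from HT29 for 4 (45.3%) and from HCT116 for 6 (45.9%). SW620 differed from HT29 for 5 (40%) and from HCT116 for 6 (38.9%), and HT29 from HCT116 for 5 (39%). PROM1, ALCAM, DCLK1 and LRIG1 each differed in 5 of the 6 pairs, MSI1 and TNFRSF19 in 4, CD44 in 3 and OLFM4 in none.

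The sort for ABCB5 was the comparison the study set up, and with it 0 of 8 markers differed, as 0% of all genes tested did (limma with the cell line as a block). At an unadjusted p under 0.05 there were 0 of 8 markers, against 4.4% of all genes tested, and ordinary least squares also called 0. None of the 8 markers had 1 sign in all 4 lines, which 13.4% of all genes tested had. The difference, ABCB5-positive minus ABCB5-negative, was -0.02 ± 0.40 for PROM1 (log2, SD, n = 4 lines, as for those that follow), 0.03 ± 0.17 for CD44, 0.05 ± 0.23 for ALCAM and -0.03 ± 0.57 for DCLK1. It was 0.01 ± 0.10 for OLFM4, 0.04 ± 0.10 for MSI1, 0.04 ± 0.19 for LRIG1 and 0.10 ± 0.56 for TNFRSF19. Their limma adjusted p-values ran from 0.945 to 0.987.

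These values bound a common shift for some of the 6 markers above background in most arrays better than for others. The 95% interval of the difference was -0.17 to 0.23 for CD44, -0.12 to 0.20 for MSI1 and -0.16 to 0.25 for LRIG1. It was wider for ALCAM (-0.19 to 0.28), PROM1 (-0.37 to 0.34) and TNFRSF19 (-0.37 to 0.58). With 0 and 3 of 8 arrays above background, OLFM4 and DCLK1 are not bounded in this way. A common difference inside these intervals stays possible with 4 pairs of arrays. The intervals are not adjusted for the number of genes tested, so a difference outside them could also miss the adjusted threshold.

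**Figure D3:**
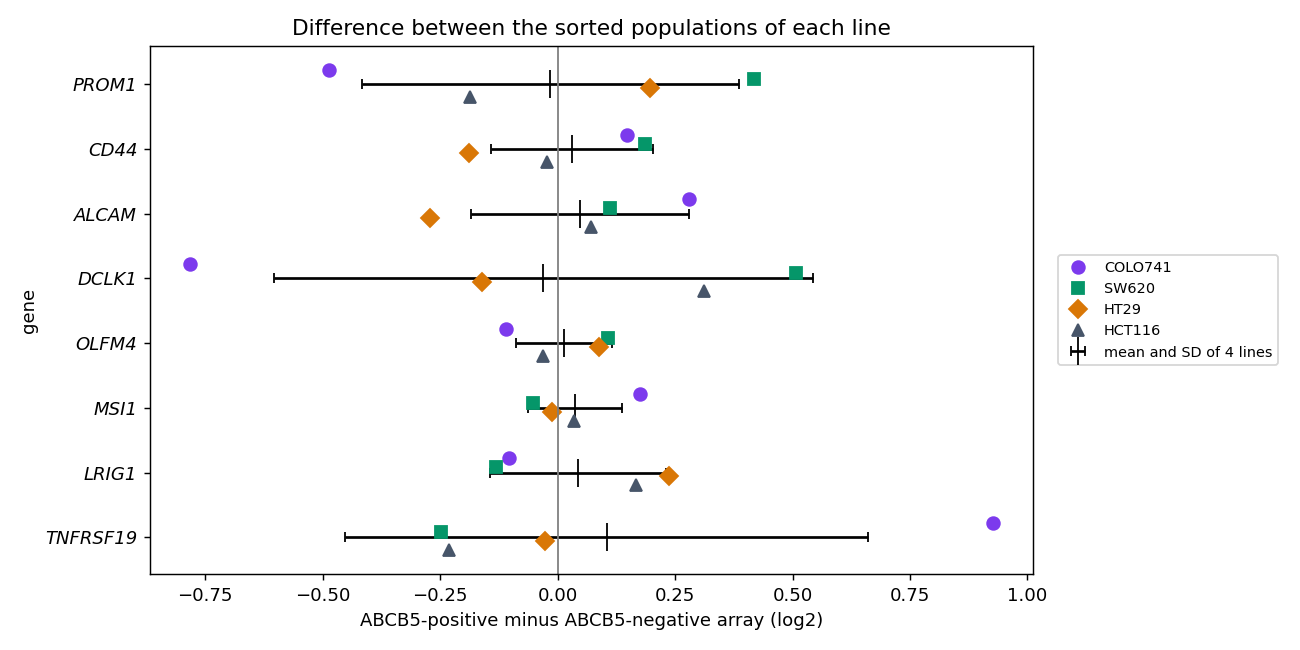
Difference between the ABCB5-positive and the ABCB5-negative array of each line (horizontal axis, log2) for each marker (vertical axis), with 1 symbol per line and the mean and SD of the 4 lines in black. Every marker has symbols on both sides of 0, and the widest are TNFRSF19 and DCLK1 in COLO741, at 0.93 and -0.78.

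The largest differences between the 2 arrays of a line lay in COLO741 and SW620, with no replicate and no test. In COLO741 TNFRSF19 was 1.90-fold higher in ABCB5-positive cells and DCLK1 1.72-fold lower. PROM1 in that line was lower by 0.49 log2 units on the ABCB5-positive array, which was itself under the background limit. In SW620 DCLK1 was higher by 0.51 and PROM1 by 0.42 log2 units, DCLK1 with both arrays at background. A difference over 0.5 log2 units was found for 2 of 8 markers in COLO741 (8.08% of all genes tested), 1 in SW620 (3.6%), 0 in HT29 (2.4%) and 0 in HCT116 (0.846%). Beside the SW620 values stand the leukocyte genes of that ABCB5-positive array, of which CYBB, a subunit of the phagocyte oxidase, was at 9.28 in ABCB5-positive against 6.06 in ABCB5-negative cells, and their part was not tested.

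Whether the sort moved the markers differently in COLO741 was tested on the 4 within-line differences, 1 of COLO741 against 3 of the other lines. COLO741 has a single difference there, which is assumed to vary like the others, so the errors come from the other lines alone. None of 8 markers passed, where 0.337% of all genes tested did. TNFRSF19 had the smallest p, with the COLO741 difference above that of the other lines by 1.10 ± 0.15 log2 units (SE; limma, unadjusted p = 5.31e-04, adjusted p = 0.0767, from 0.0662 to 0.182 over the alternatives). With the COLO741 arrays exchanged, since ABCB5 RNA ran against their labels, it was -0.76. PROM1 had -0.63 ± 0.25 (unadjusted p = 0.0481, adjusted p = 0.363), and 0.34 with the arrays exchanged. DCLK1 had a fitted value of -1.001 ± 0.27 (adjusted p = 0.227), or 0.56 with the arrays exchanged, but 5 of the 6 arrays of the other lines were under the background limit, so its size was not measured. In the 3 other lines TNFRSF19 was lower in ABCB5-positive cells each time, by a mean of -0.17 ± 0.12 (SD, n = 3). The difference in HT29 was only -0.03, and the HT29 and HCT116 arrays lay just above the background limit.

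Other stem cell markers were measured by 21 genes of a list of 22. Across the sort 0 of 21 passed, 10 were higher, and their median was -0.00049, against -0.0047 over all genes tested. NGFR, a neurotrophin receptor, had the smallest p of the list, at -0.22 ± 0.26 (SD, n = 4; limma, adjusted p = 0.898). Single genes differed more within COLO741, with no replicate and no test. ALDH1A1, an aldehyde dehydrogenase, was at 10.62 in ABCB5-positive and 9.01 in ABCB5-negative cells there, and its differences in the other lines ran from -0.15 to -0.02. EPCAM went the other way in COLO741, with both arrays at background. The median difference of the list in COLO741 was -0.02. In COLO741 15 of the 21 were lower and 1 was higher than the mean of the other lines, where 26% and 23.7% of all genes tested were, with a median of -1.28 against -0.04 over all genes tested. Some of these calls rest on single lines. SMOC2 was above background only in SW620 (mean 10.42), and LGR5 was at background in HCT116 as in COLO741. ALDH1A1, the 1 gene higher, averaged 9.82 in COLO741 but 12.94 in HT29, and was at background in SW620 and HCT116. EPCAM had the largest fitted difference of the list (limma, adjusted p = 1.28e-06). COLO741 was at background for EPCAM, and with COLO741 set at the background limit it was at least 64.7-fold lower than the mean of the other lines.

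**Figure D4:**
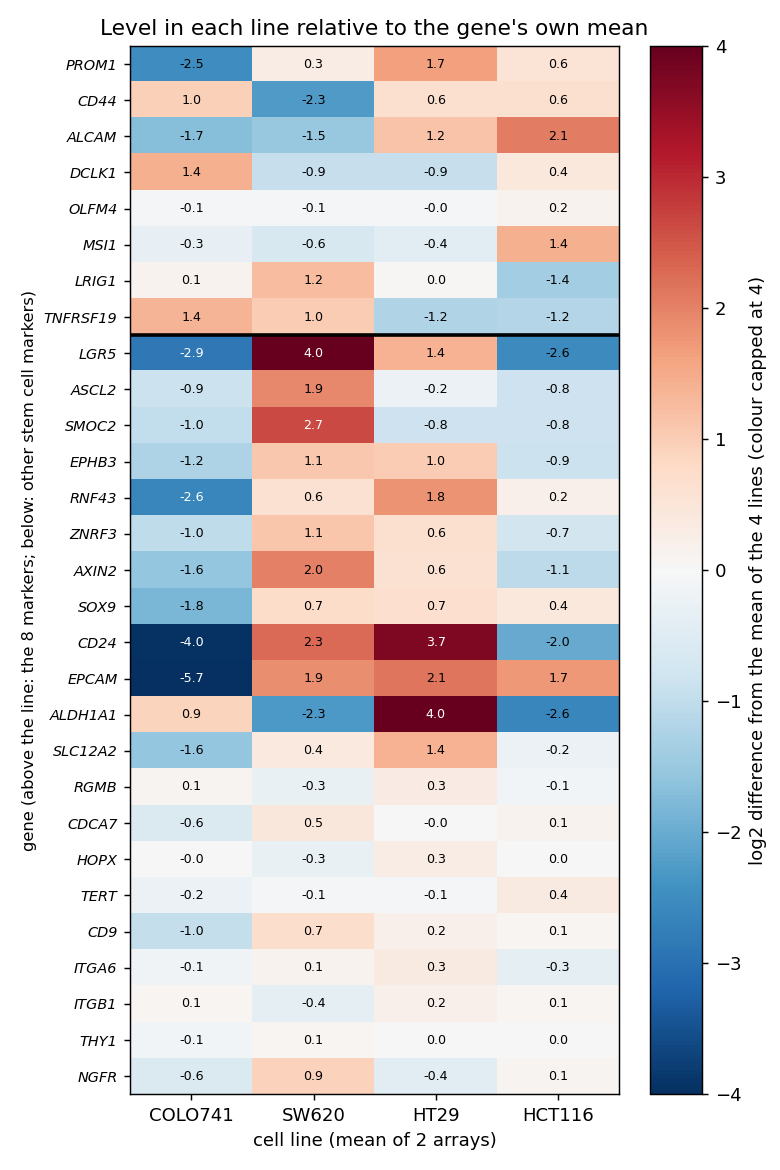
Mean log2 level of 2 arrays in each cell line (columns) minus the mean of the 4 lines, for the 8 markers above the black line and 21 other stem cell markers below it (rows), with the colour capped at 4. COLO741 is blue for most rows below the line. Above it COLO741 is mixed, on the red side for CD44, DCLK1 and TNFRSF19 and on the blue side for PROM1, ALCAM and MSI1. SW620 is red for LGR5 and blue for CD44.

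Of 21 paralogs of the markers tested, 17 differed among the 4 lines, where 67.2% of all genes tested did. None passed across the sort, 9 were higher and the median was -0.03. PCGF5, of the Polycomb ring finger family to which BMI1 belongs, had the smallest p, at 0.36 ± 0.32 (SD, n = 4; limma, unadjusted p = 0.0237, adjusted p = 0.898). In COLO741 10 were higher and 5 lower than the mean of the other lines, where 23.7% and 26% of all genes tested were, with a median of 0.23. LRIG3, a relative of LRIG1, had the largest fitted difference at 1.64 (adjusted p = 2.24e-04), which rests on SW620 and was 0.46 without it. It averaged 10.18 in COLO741, 9.79 in HT29 and 9.65 in HCT116, and was at background in SW620, where LRIG1 was highest.

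The subunits of Polycomb complexes 1 and 2, in which BMI1 works, were measured by 11 of 14 genes. None passed across the sort, 7 of 11 were higher, and the median was 0.03. PHC1, a Polyhomeotic subunit, had both the smallest p across the sort (-0.18 ± 0.17, SD, n = 4; limma, adjusted p = 0.898) and the largest difference of COLO741, 1.01 (adjusted p = 1.97e-04), which was 0.45 without HT29. In COLO741 4 of the 11 were higher and 1 was lower, where 23.7% and 26% of all genes tested were.

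Partners of CD44 and enzymes of hyaluronan were measured by 10 of 16 genes. None passed across the sort, 7 of 10 were higher, and the median was 0.05. HMMR, another hyaluronan receptor that also works in mitosis, had the smallest p, at 0.16 ± 0.17 (SD, n = 4; limma, adjusted p = 0.898). In COLO741 4 were higher and 4 lower, where 23.7% and 26% of all genes tested were. SPP1 (osteopontin), a ligand of CD44, differed most, by 5.80 (adjusted p = 2.29e-05), and was at 13.88 in ABCB5-positive and 12.70 in ABCB5-negative COLO741 cells.

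Among pluripotency factors 5 of 8 genes were tested, 0 passed across the sort, 2 were higher, and the median was -0.06. SALL4, with 1 of 8 arrays above background, had the smallest p, at 0.20 ± 0.30 (SD, n = 4; limma, adjusted p = 0.898). In COLO741 0 were higher and 3 lower, where 23.7% and 26% of all genes tested were. SOX2, a transcription factor of stem and progenitor cells, differed most, by -1.54 (adjusted p = 1.14e-04), but it was above background only in SW620, at 12.08 in ABCB5-positive and 12.47 in ABCB5-negative cells, so the value sets COLO741 against SW620 and is no measured size.

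The genes closest in pattern to each marker were sought by the root mean square distance between log2 values centred on each gene's own mean, over the 8 arrays, which share only 4 lines. Closest to PROM1 were ELF3 and SPINT1, a transcription factor and a protease inhibitor of epithelia, at distances of 0.22 and 0.25, where PROM1 itself varied by 1.54 about its mean. SLC16A7 and TBC1D4 (0.22 and 0.23) were closest to CD44 and shared its low level in SW620. MYEOV and CA2, a carbonic anhydrase, were closest to ALCAM (0.28 and 0.30), MDFIC and ZNF701 to DCLK1 (0.28 and 0.30), and ELOVL3 and BMERB1 to MSI1 (0.11 and 0.12). ZBTB18 and GJB1, a connexin, were closest to LRIG1 (0.18 and 0.22), and ADAMTS9, a protease of the extracellular matrix, and FAM120C to TNFRSF19 (0.24 and 0.32). No 2 markers shared a closest gene.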

How the data were processed

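The authors deposited 1 value per probe set and array (33297 probe sets, 8 arrays), read as log2 expression from its range. Affymetrix Expression Console made them, per the submitters' processing notes; the sources used here give neither its version nor its summarisation and normalization. Array medians lay between 8.03 and 8.10, and no further scaling was applied.

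Gene names came from the platform annotation, updated by gene identifier (GRCh38.p14 names). Genes with a mean under 5.73, the median of the olfactory receptor probe sets, were left out. The rest was fitted with limma 3.58.1 (R 4.3.3), with cell line and sorted population as terms, and two-sided p-values were adjusted over all genes by Benjamini-Hochberg, at 0.05. Both populations of a line are paired by its label, and their deviations from the group means correlated at 0.932 to 0.963. The number of arrays limits precision. Alternatives covered the filter, the scaling, the probe set rule, the block and single lines.

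Genes named are the 9 markers, ABCB5, per list the smallest p of the sort and the largest COLO741 difference, and the 2 closest genes per marker above background. LGR5, ALDH1A1 and SMOC2 were named after their values were seen. Cell type genes are named where they move with a result. Markers and lists were chosen with earlier results of these data known.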

Additional observations from a re-analysis of the deposited data

Results flagged for a closer look

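CD44 in SW620 stood apart from the other lines in both sorted groups, at a log2 level of 10.87 among the 4 ABCB5-positive arrays and 10.69 among the 4 ABCB5-negative arrays, with a gap of 0.847 and 0.929 of the group's range. MSI1 in HCT116 stood apart among the ABCB5-negative arrays, at 10.02, with a gap of 0.898 of the range. These are 3 of 16 groups of 4 arrays looked at, and the arrays of a group are different lines. Chance flags about 1 in 20 independent groups, but both groups of a marker hold the same lines. Both CD44 flags show the same line, so no excess over chance can be read from the count.

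The probe set that names COMMD3-BMI1 and BMI1 together was outside the comparisons and well above background on all 8 arrays, with a mean of 12.13. In the ABCB5-positive and then the ABCB5-negative array it measured 12.29 and 11.87 in COLO741, 11.64 and 11.77 in SW620, 12.005 and 11.969 in HT29, and 12.70 and 12.79 in HCT116.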

How the results depend on the processing

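With 4 pairs of arrays and 2 arrays per line, precision is limited by their number, and DCLK1 and OLFM4, with 3 and 0 arrays above background, are limited by signal. Every count of markers past the threshold stayed within 1.5 times its value under all alternatives run, and the count for the sort stayed at 0 with no replicate block, with the line as a random replicate block and by ordinary least squares. The strict filter on dim genes left out DCLK1 and OLFM4. The signs of single markers across the sort, none past the threshold, did turn. With the COLO741 arrays exchanged, as ABCB5 RNA ran against their labels, they were 0.23 for PROM1, -0.044 for CD44, -0.092 for ALCAM, 0.36 for DCLK1, -0.052 for MSI1 and -0.36 for TNFRSF19. The same exchange, chosen after seeing the data for the COLO741 difference set against those of the other lines, gave 0.34 for PROM1, -0.14 for CD44, -0.25 for ALCAM, 0.56 for DCLK1, 0.055 for OLFM4, -0.17 for MSI1, 0.012 for LRIG1 and -0.76 for TNFRSF19. Without COLO741 and SW620, chosen after seeing the data, they were 0.0046 for PROM1, -0.11 for CD44, -0.10 for ALCAM, 0.076 for DCLK1 and -0.13 for TNFRSF19, and with arrays centred on their medians PROM1 was at 0.00055. With 1 line left out the sort differences ran from -0.16 to 0.14 for PROM1, -0.022 to 0.10 for CD44, -0.029 to 0.15 for ALCAM, -0.21 to 0.22 for DCLK1, -0.018 to 0.055 for OLFM4, -0.010 to 0.066 for MSI1, -0.022 to 0.10 for LRIG1 and -0.17 to 0.22 for TNFRSF19. In the same way the COLO741 difference ran from -0.81 to 0.22 for MSI1 and from -0.50 to 0.80 for LRIG1, and over ABCB5-negative arrays alone it was 0.0076 for OLFM4. The exchange reverses the COLO741 difference by construction, but the mean over the lines need not turn. Across the sort OLFM4 and LRIG1 kept their sign with the arrays exchanged, at 0.068 and 0.094. The cause of the turns under other settings was not tested.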
